A study of Mus musculus with 4 samples.

Results

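The genes described here are those of the major histocompatibility complex (MHC) and of antigen presentation, measured in 4 mouse livers. They were chosen by name. Every entry of the deposited table whose symbol starts with H2- was taken, which gave 38 genes, and 10 genes of the same pathway were added (B2m, Tap1, Tap2, Tapbp, Psmb8, Psmb9, Psmb10, Cd74, Ciita and Nlrc5). That makes 48 of the 21959 genes in the table, of which 35 belong to the class I side and 12 to the class II side. The last, H2-Ke6, carries the prefix for its place in the MHC and belongs to neither side. The livers came from wild-type (WT) mice, all with acute-on-chronic liver failure (ACLF), in which acute liver failure strikes a liver that is already chronically diseased. The saline group (saline 1 and saline 2) had ACLF with saline treatment, and the baicalein group (baicalein 1 and baicalein 2) had ACLF with baicalein, a plant flavone. The labels give no strain, sex, age, dose, route or time, and do not say how the liver failure was induced. Nothing in them ties each liver to a separate animal. The p-values therefore speak of the scatter among these 4 samples, part of which may be technical.

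MHC class I molecules are carried by nearly all nucleated cells. A polymorphic heavy chain pairs with the light chain beta-2 microglobulin (B2m) and displays peptides cut from the cell's own proteins, so that CD8 T cells can inspect them. The peptides are cut by the proteasome, which in inflamed tissue can exchange its catalytic subunits for those of the immunoproteasome, and are carried into the endoplasmic reticulum by the transporter Tap1-Tap2 and loaded with the help of tapasin (Tapbp). MHC class II molecules are carried mainly by dendritic cells, B cells and macrophages, show peptides from engulfed material to CD4 T cells, and depend on the invariant chain (Cd74) and on the peptide exchange factors H2-DM and H2-DO. Nlrc5 and Ciita are related transactivators of the class I and the class II genes, and interferon gamma raises both sets.

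The upstream sequences of 5 heavy or alpha chain genes are printed because their outcomes in the results below differed. H2-D1 and H2-Q4 rose, H2-K1 had a positive difference that missed the threshold, and neither H2-Q10 nor the class II gene H2-Aa passed it. Each line holds the 250 bases before the gene's RefSeq start on build GRCm38.p6, 5′ to 3′ on the gene's own strand. For a gene with several starts the first listed was used. The windows lie at chr17:35262844-35263093 on the plus strand for H2-D1, chr17:34000348-34000597 on the minus strand for H2-K1 and chr17:35379367-35379616 on the plus strand for H2-Q4. Those of H2-Q10 and H2-Aa lie at chr17:35469839-35470088 on the plus strand and chr17:34287824-34288073 on the minus strand. Capitals mark 4 letter strings searched on both strands: GGGATTCCC (kappaB-like), GAANNGAAA (interferon regulatory factor-like), TGACG (cyclic AMP response element-like) and ATTGG (an inverted CCAAT box). On the opposite strand they read as their reverse complement, and the pair of TGACG matches in H2-Aa overlap each other. GGGATTCCC begins 110 bases before the start used in H2-K1 and 170 in H2-D1. The H2-K1 window therefore ends earlier in the stretch they share, and letters absent from it may lie past its end.
H2-D1: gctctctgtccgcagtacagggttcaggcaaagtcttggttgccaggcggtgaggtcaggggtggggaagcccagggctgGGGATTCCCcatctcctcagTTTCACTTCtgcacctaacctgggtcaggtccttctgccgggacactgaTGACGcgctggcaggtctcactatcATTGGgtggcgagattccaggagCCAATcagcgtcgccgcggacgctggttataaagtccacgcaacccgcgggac
H2-K1: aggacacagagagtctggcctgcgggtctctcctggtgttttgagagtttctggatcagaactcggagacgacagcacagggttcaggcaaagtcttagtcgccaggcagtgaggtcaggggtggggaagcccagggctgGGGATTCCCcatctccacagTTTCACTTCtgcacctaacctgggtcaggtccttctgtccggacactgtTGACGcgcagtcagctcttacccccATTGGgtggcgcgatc
H2-Q4: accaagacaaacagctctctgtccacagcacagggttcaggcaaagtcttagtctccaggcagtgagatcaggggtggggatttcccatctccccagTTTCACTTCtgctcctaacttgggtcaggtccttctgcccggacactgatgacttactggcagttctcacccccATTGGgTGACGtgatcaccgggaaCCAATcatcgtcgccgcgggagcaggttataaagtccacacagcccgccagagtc
H2-Q10: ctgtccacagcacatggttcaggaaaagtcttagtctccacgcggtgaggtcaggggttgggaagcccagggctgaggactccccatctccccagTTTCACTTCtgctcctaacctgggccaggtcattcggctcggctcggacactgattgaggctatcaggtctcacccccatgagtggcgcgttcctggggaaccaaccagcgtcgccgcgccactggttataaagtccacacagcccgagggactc
H2-Aa: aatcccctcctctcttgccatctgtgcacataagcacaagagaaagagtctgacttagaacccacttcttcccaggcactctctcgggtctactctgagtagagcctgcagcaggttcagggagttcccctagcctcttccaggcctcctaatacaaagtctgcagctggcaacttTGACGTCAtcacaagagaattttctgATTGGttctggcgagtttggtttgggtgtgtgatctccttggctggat
The strings were chosen with these sequences in view, and a match is a description of letters, not a binding site. H2-D1 and H2-K1 held the string GGGATTCCC, as did H2-Q6 and H2-Q7, and 0.301% of the 32851 windows in the RefSeq table did. At the like place the H2-Q4 window reads gggatttccc, with an added T, which the exact string does not match and which is therefore not marked. In 7 of the tested members, among them all 4 class I genes printed here, the window held GAANNGAAA, which 6.31% of all windows hold. TGACG stood in 10 of the 22 tested members with a window and in 17.8% of all windows, and ATTGG in 18 of the 22 and in 33.8% of all. In a global alignment, 83.6% of the 250 bases matched between H2-D1 and H2-Q10 and 78.4% between H2-Q4 and H2-Q10. Of the 4 strings the H2-Q10 window held GAANNGAAA alone, which says only that the other letters are not in this window. In all, 37 of the 48 members were matched by symbol in the RefSeq table.

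The 4 libraries held 13976440 to 18731616 counted reads. Levels are given as CPM, counts scaled to library size by the TMM method, and levels of different genes are set against each other only as FPKM, which also divides by gene length. Albumin (Alb), the hepatocyte product that marks the tissue, stood at 53156 to 87778 CPM. Several libraries stood apart in ways the labels do not mention. The 8 skeletal muscle genes checked summed to 5519.6 CPM in saline 1 and 1946.0 in baicalein 2, against 1.46 in saline 2 and 0.963 in baicalein 1. The bile duct gene Krt19 stood at 72.2 CPM in baicalein 2 and at 1.24 to 2.29 in the other livers. Of the other bile duct genes checked, Krt7 and Epcam were also highest in baicalein 2. Sox9 and Spp1 were instead lower in both baicalein livers, with log2 differences of -1.16 each. The counts of 4 Y-linked genes summed to 820 and 836 in the saline livers and to 2 and 1 in the baicalein livers. Male saline livers and female baicalein livers would show such a split, though the labels give no sex. Treatment and this split cannot be told apart in any result below. In whole liver, a change in the number of cells of a type and a change in the RNA per cell cannot be told apart either.

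With baicalein, 11 of the 22 tested class I side genes rose, and none of the 9 tested class II side genes passed the test. A gene is called here when edgeR's adjusted p is below 0.05 over all 12657 genes tested. Of the 48 members 31 had enough counts to be tested, and 11 were called higher and 0 lower. Of all genes tested, 7.65% were called higher and 7.90% lower. The median log2 fold change of these 22 was 0.47, beside 0.01 over all genes. At an unadjusted p below 0.05, 17 of the 22 passed, as did 29.4% of all genes in either direction. On the class II side 0 of 9 tested members were called, the median was 0.09, and 2 passed at an unadjusted p below 0.05 (Cd74 and H2-DMb1), a share no higher than that over all genes. DESeq2 and limma-voom also called 0 class II members. Both baicalein livers lay above both saline livers for 22 of the 31 tested members, as they did for 29.7% of all genes, and below them for 2 (H2-Q10 and Ciita), as for 29.5% of all. The difference between the class I and the class II side was not itself tested.

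**Figure D1:**
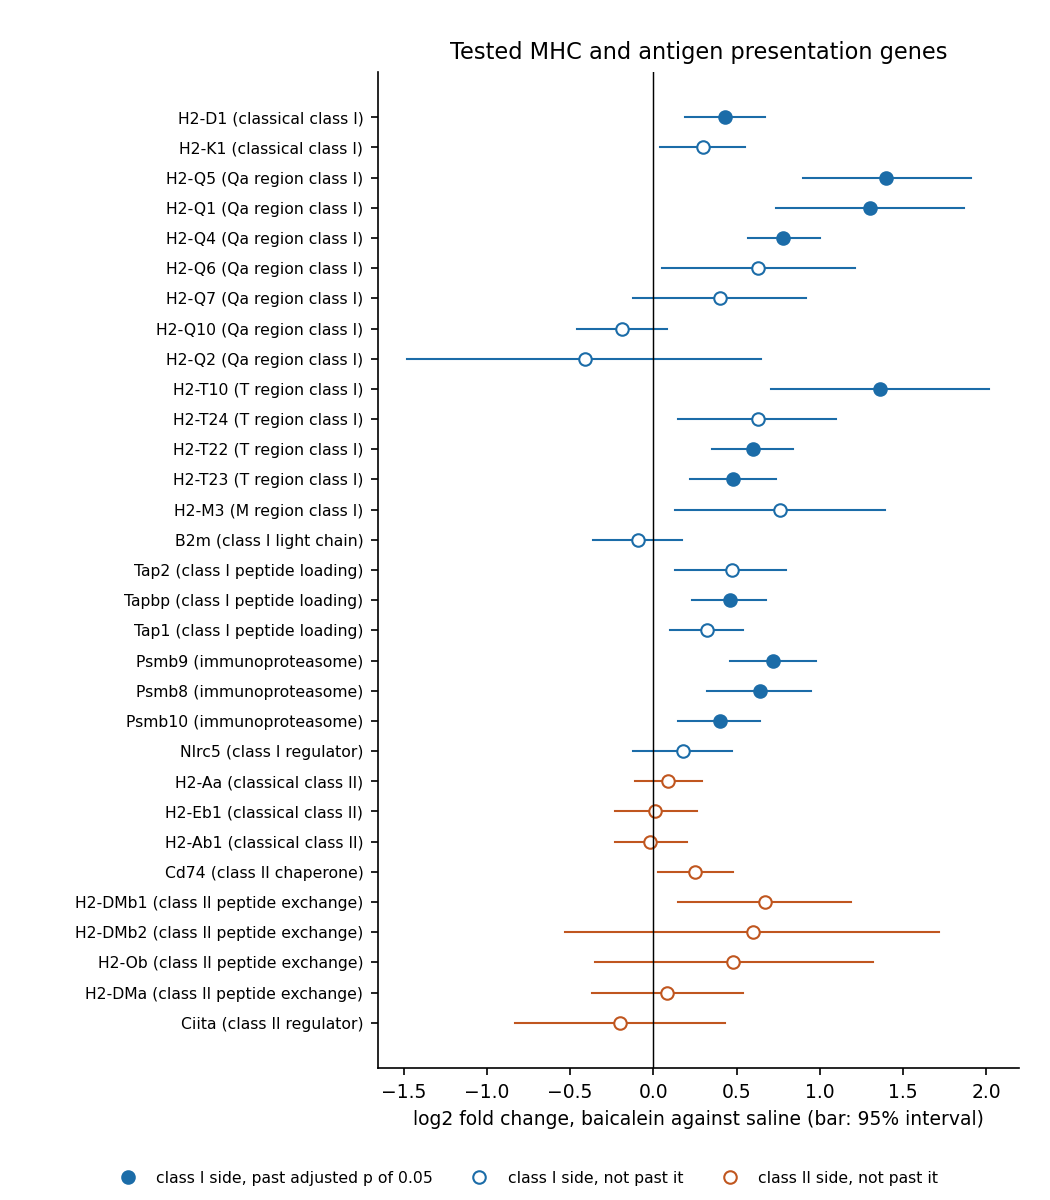
Log2 fold change of baicalein against saline for the 31 tested members, ordered by role, with points for the edgeR estimate and bars for its 95% interval (n = 2 livers a group). Filled points are the 11 members called higher, all on the class I side, and the 3 class II chains lie at -0.02 to 0.09.

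H2-K1 and H2-D1 encode the classical class I heavy chains, which present to CD8 T cells. H2-D1 was at 676 and 645 CPM in saline 1 and 2 and at 939 and 839 CPM in baicalein 1 and 2. Both baicalein livers were above both saline livers, by a log2 fold change of 0.43 (SE 0.11, 95% interval 0.19 to 0.67), and edgeR's adjusted p was 0.0274. H2-K1, the more abundant of the pair, was at 1537 and 1550.0 CPM in saline and at 2029 and 1762 in baicalein. Its groups also did not overlap, but the log2 difference of 0.30 (95% interval 0.04 to 0.55) had an edgeR adjusted p of 0.116. H2-K1 did pass with DESeq2 and when baicalein 2 was left out, and its adjusted p ran from 0.0162 to 0.578 over 12 alternatives. Per length, H2-K1 stood at 504 to 680 FPKM and H2-D1 at 245 to 359 FPKM, so H2-K1 was the higher of the pair in every liver.

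The heavy chains of the Qa region, non-classical molecules with narrower roles, moved unevenly. H2-Q4 was at 28.8 and 30.0 CPM in saline and at 52.7 and 48.5 in baicalein, a log2 rise of 0.78 (SE 0.09, 95% interval 0.57 to 1.00, edgeR adjusted p 9.41e-04). Along with Psmb9, described below, it was called under all 12 alternatives. H2-Q5 was at 3.70 and 4.16 CPM in saline and at 11.8 and 9.03 in baicalein, so every baicalein value was above every saline value. H2-Q5 had the largest log2 rise of the tested members, 1.40 (SE 0.22, 95% interval 0.90 to 1.91, edgeR adjusted p 0.00361). H2-Q1 was at 10.6 and 8.39 CPM in saline and at 28.1 and 19.1 in baicalein, a log2 rise of 1.30 (SE 0.23, 95% interval 0.74 to 1.87, edgeR adjusted p 0.0156). Its baicalein livers differed from each other more than its saline livers did, yet did not overlap them. H2-Q6 and H2-Q7, which encode the Qa-2 antigen, had log2 differences of 0.63 and 0.40 with edgeR adjusted p of 0.141 and 0.276. H2-Q2, at 1.10 to 2.59 CPM, had a difference of -0.41 with a 95% interval from -1.48 to 0.65 and overlapping groups.

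H2-Q10 is a class I heavy chain that liver secretes into the blood. It was at 1789.8 and 1663 CPM in saline and at 1635 and 1395 in baicalein. Both baicalein livers were below both saline livers, unlike those of the 12 heavy chains in which they were above, but by little. The log2 difference was -0.19 (95% interval -0.46 to 0.08) and edgeR's adjusted p was 0.331. The difference ran from -0.32 to -0.08 over the 12 alternatives, a sign that groups lying apart in that order could hardly change. Set against H2-Q10 within each liver, H2-D1 had an FPKM ratio of 0.637 and 0.654 in saline and of 0.968 and 1.01 in baicalein. H2-K1 to H2-Q10 was 1.27 and 1.38 in saline and 1.84 and 1.87 in baicalein. These ratios do not depend on how the libraries are scaled, and in both the baicalein livers lay above the saline livers. That order follows from FPKM that was higher in both baicalein livers for H2-D1 and H2-K1 and lower for H2-Q10. The ratios are given without a test, since with 2 livers a group an exact permutation test cannot give a two-sided p below 0.333.

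The T region holds further non-classical chains, among them H2-T23, which encodes Qa-1, the ligand of an inhibitory receptor on natural killer and CD8 T cells. H2-T23 was at 241 and 258 CPM in saline and at 377.5 and 318 in baicalein, a log2 rise of 0.48 (SE 0.11, 95% interval 0.22 to 0.74, edgeR adjusted p 0.0240). H2-T22 and H2-T10 are close relatives that gamma delta T cells recognise. H2-T22 was at 125 and 115.5 CPM in saline and at 194 and 170.3 in baicalein, a log2 rise of 0.60 (SE 0.11, 95% interval 0.35 to 0.84, edgeR adjusted p 0.00640). H2-T10, at 0.563 to 1.72 FPKM beside 33.2 to 55.9 FPKM for H2-T22, was at 2.0 and 2.33 CPM in saline and at 5.98 and 5.19 in baicalein, and rose by 1.36 (SE 0.29, 95% interval 0.71 to 2.02, edgeR adjusted p 0.0140). In all 3 the groups were apart, with baicalein 1 the highest liver. H2-T24 had a difference of 0.63 and an edgeR adjusted p of 0.0805. In the M region only H2-M3, which presents formylated bacterial peptides, had enough reads. It was at 4.76 and 3.21 CPM in saline and at 5.98 and 7.53 in baicalein, with a log2 difference of 0.76 and an edgeR adjusted p of 0.105. In the livers, 10 M region genes and H2-T3 had 0 counts in all 4 livers, where 3 counts would be 0.16 to 0.215 CPM. H2-M2 had 1 or 2 counts a liver and H2-Bl 6 to 13.

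Heavy chain genes resemble each other, and no source used here says how reads that match several of them were counted. Values of single heavy chains are therefore uncertain. Of the 50-base words in its GENCODE M21 transcripts, H2-Q5 shared 36.1% with other members, H2-T22 shared 34.2% and H2-T10 shared 32.0%. The share was 15.4% for H2-Q4, 15.0% for H2-Q1, 10.9% for H2-D1, 9.63% for H2-K1 and 5.23% for H2-T23. A sum over all heavy chains does not depend on how shared reads were split among them. It does depend on whether such reads were dropped or given to genes outside the sum, which is not known. That sum was 4453 and 4309 CPM in saline and 5327 and 4612 in baicalein, 1.13 times as high. Without H2-Q10, which shares 18.4% of its words with other members, it was 2663 and 2646 CPM in saline and 3692 and 3217 in baicalein, 1.3 times as high, a value that does depend on that split. In both sums the baicalein livers were above the saline livers.

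**Figure D2:**
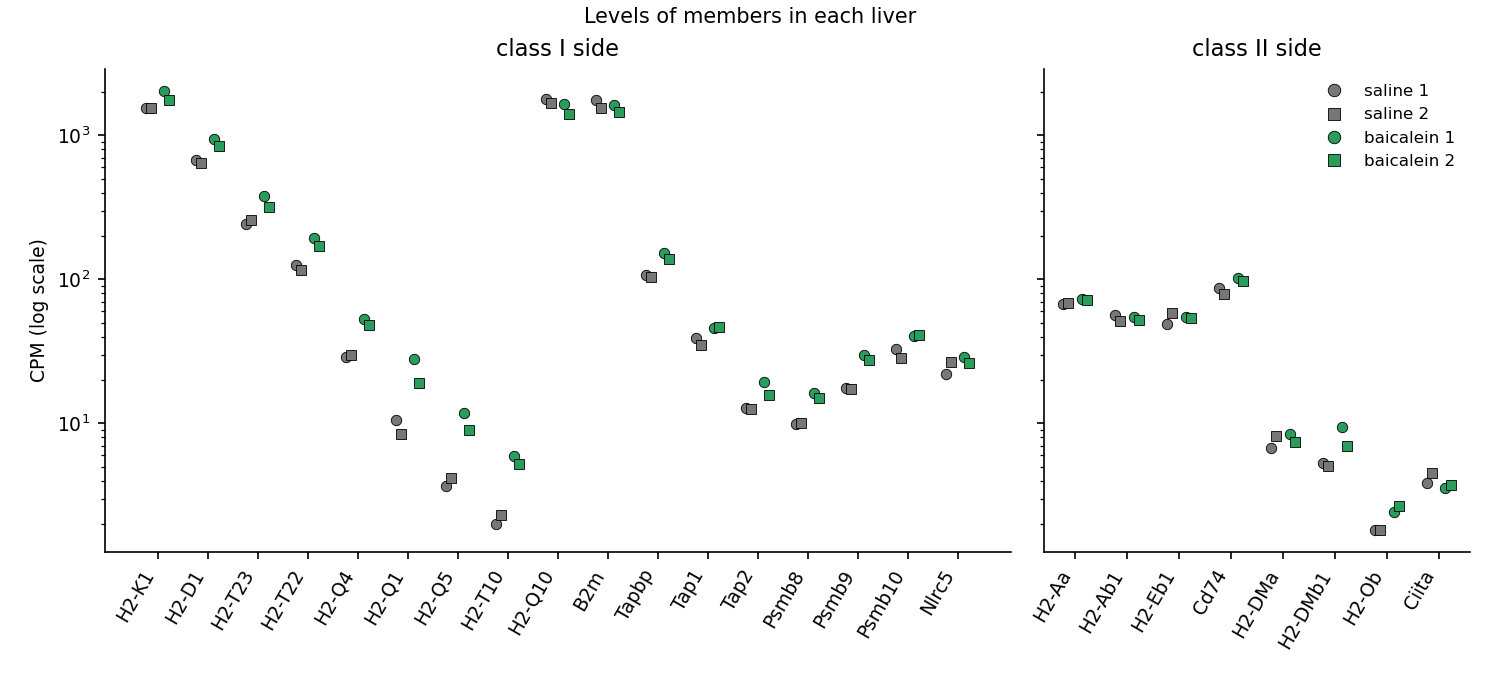
CPM on a log axis in each of the 4 livers for 17 class I side and 8 class II side members, with circles for liver 1 and squares for liver 2 of each group. Green baicalein points lie above grey saline points for H2-K1 through H2-T10, and lie among or below them for H2-Q10, B2m, H2-Ab1, H2-Eb1, Nlrc5, H2-DMa and Ciita.

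B2m is the light chain that every class I heavy chain needs at the cell surface, and it was not called. It was at 1748 and 1550.4 CPM in saline and at 1632.5 and 1458 in baicalein. The groups overlapped, the log2 difference was -0.09 (95% interval -0.36 to 0.17) and edgeR's adjusted p was 0.650. B2m was the most abundant member per length, at 1769 to 1956 FPKM, above H2-K1 in every liver. The FPKM ratio of H2-D1 to B2m was 0.129 and 0.139 in saline and 0.192 in each baicalein liver, and that of H2-K1 to B2m was 0.257 and 0.293 against 0.364 and 0.354. In both ratios the groups were apart.

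All 3 catalytic subunits of the immunoproteasome rose. Psmb9, its beta-1i subunit, was at 17.6 and 17.2 CPM in saline and at 29.8 and 27.6 in baicalein, a log2 rise of 0.72 (SE 0.11, 95% interval 0.46 to 0.98, edgeR adjusted p 0.00356). Psmb8, the beta-5i subunit, was at 9.88 and 10.1 CPM in saline and at 16.2 and 14.9 in baicalein, a log2 rise of 0.64 (SE 0.14, 95% interval 0.32 to 0.95, edgeR adjusted p 0.0163). Psmb10, the beta-2i subunit, was at 33.0 and 28.6 CPM in saline and at 40.2 and 40.9 in baicalein, a log2 rise of 0.40 (SE 0.11, 95% interval 0.15 to 0.64, edgeR adjusted p 0.0376). Within each group the livers were closer to each other than to the other group for all 3 subunits. None of the constitutive subunits they replace was called, and all 3 estimates were negative. Psmb5 had a log2 difference of -0.33, Psmb6 of -0.20 and Psmb7 of -0.19.

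The ratio of an immunoproteasome subunit to the constitutive subunit it replaces needs no library scaling. Psmb8 to Psmb5 was 0.0879 and 0.103 in saline and 0.182 and 0.191 in baicalein, 1.95 times as high on average. Psmb9 to Psmb6 was 0.0768 and 0.0829 in saline and 0.149 and 0.154 in baicalein, 1.89 times as high. Psmb10 to Psmb7 was 0.848 and 0.765 in saline and 1.14 and 1.29 in baicalein, 1.5 times as high. In all 3 ratios the lower baicalein liver was above the higher saline liver. That order adds nothing to the single genes. In FPKM both baicalein livers were above both saline livers for each immunoproteasome subunit and below them for each constitutive one. Per length, Psmb8 and Psmb9 remained well below their constitutive partners in every liver, while Psmb10 was above Psmb7 in both baicalein livers.

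**Figure D3:**
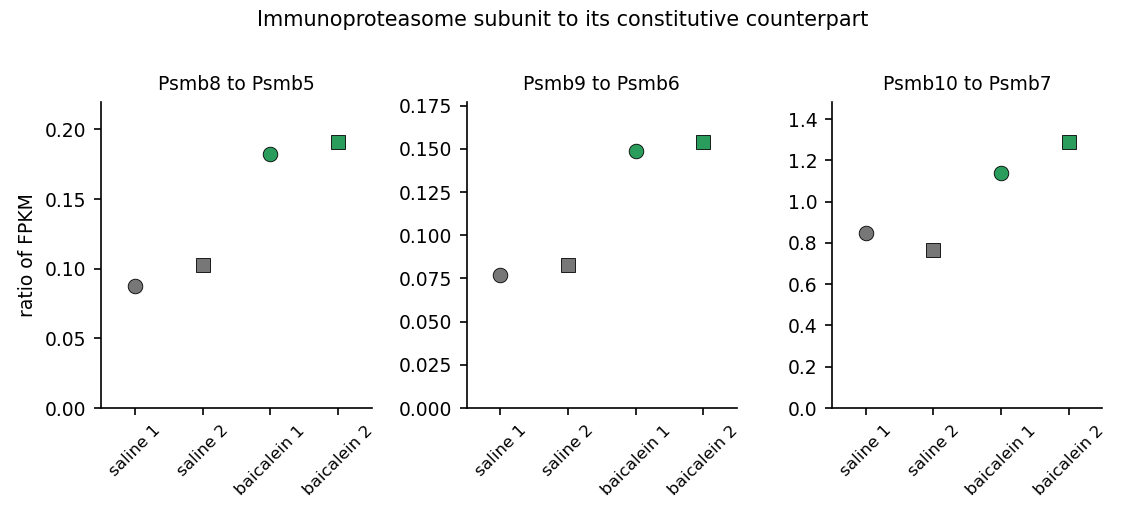
FPKM ratio of each immunoproteasome subunit to its constitutive counterpart in each of the 4 livers, with each vertical axis starting at 0. Saline livers sit at 0.0879 and 0.103 for Psmb8 to Psmb5 and baicalein livers at 0.182 and 0.191, and the other 2 panels are ordered alike.

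Of the 3 peptide loading genes 1 was called. Tapbp (tapasin) was at 107 and 104.5 CPM in saline and at 152 and 138.5 in baicalein, a log2 rise of 0.46 (SE 0.10, 95% interval 0.23 to 0.68, edgeR adjusted p 0.0152). Tap1 was at 39.3 and 34.9 CPM in saline and at 46.0 and 46.6 in baicalein, and its log2 difference of 0.32 (95% interval 0.10 to 0.54) had an edgeR adjusted p of 0.0586. Tap2, the other chain of the transporter, was at 12.8 and 12.5 CPM in saline and at 19.3 and 15.7 in baicalein, with a difference of 0.47 (95% interval 0.13 to 0.80) and an edgeR adjusted p of 0.0651. The groups did not overlap in any of the 3, but the transporter genes missed the threshold. Nlrc5, the class I transactivator, was at 22.2 and 26.8 CPM in saline and at 29.0 and 26.3 in baicalein. Its groups overlapped, and the log2 difference of 0.18 (95% interval -0.12 to 0.47) had an edgeR adjusted p of 0.419. Over all genes tested, 7.65% were called higher and 7.90% lower. Of 10 further cofactors of class I loading and peptide trimming, 0 were called higher and 1 was called lower, with a median log2 fold change of 0.01. The one called lower was Psme3, the nuclear proteasome activator subunit, by 0.38 on the log2 scale, from 102 and 104 CPM to 79.8 and 78.3. Psme2, an interferon-inducible activator subunit, had a difference of 0.17, and Sec61b, a subunit of the translocation channel of the endoplasmic reticulum, of -0.22.

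The class II chains were close to level. H2-Aa was at 67.0 and 68.6 CPM in saline and at 72.5 and 71.7 in baicalein, a log2 difference of 0.09 (95% interval -0.11 to 0.29, edgeR adjusted p 0.560). H2-Ab1 was at 57.0 and 51.2 CPM in saline and at 54.9 and 52.2 in baicalein, a difference of -0.02 (95% interval -0.23 to 0.20, edgeR adjusted p 0.939). H2-Eb1 was at 48.9 and 58.1 CPM in saline and at 54.4 and 53.6 in baicalein, a difference of 0.01 (95% interval -0.23 to 0.26, edgeR adjusted p 0.947). The groups overlapped for H2-Ab1 and H2-Eb1, and the intervals of all 3 include 0. Their upper ends lie between 0.20 and 0.29, so a rise of the size seen in Psmb9 or H2-Q4 is outside them. H2-Ea had 0 counts in all 4 livers, and H2-Eb2 had 2, 4, 8 and 3 counts in saline 1, saline 2, baicalein 1 and baicalein 2. Summed, the class II chains stood at 173 and 178 CPM in saline and at 182 and 178 in baicalein, a ratio of 1.03 (1.08 in CPM without TMM scaling and in deposited FPKM). Over the whole class II side the sum was 279.3 and 279.5 CPM in saline and 309.7 and 298.2 in baicalein, a ratio of 1.09. The whole class I side, with B2m and H2-Q10 included, had the same ratio of 1.09. Its groups overlapped, at 6442 and 6094 CPM in saline and 7292 and 6381 in baicalein. The FPKM of H2-K1 and H2-D1 together was 12.1 and 11.4 times that of the class II chains in saline and 15.4 and 13.8 times in baicalein.

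Cd74, the invariant chain that guides class II molecules to their loading compartment, was at 86.8 and 79.7 CPM in saline and at 102 and 96.6 in baicalein. The groups did not overlap, and the log2 difference of 0.25 (95% interval 0.03 to 0.48) had an edgeR adjusted p of 0.120. H2-DMb1, a chain of the peptide exchange factor H2-DM, was at 5.29 and 5.03 CPM in saline and at 9.42 and 6.99 in baicalein, with a difference of 0.67 (95% interval 0.15 to 1.19) and an edgeR adjusted p of 0.0870. Its partner H2-DMa had a difference of 0.08 and overlapping groups. H2-DMb2 had a difference of 0.60 that changed sign without baicalein 2, and it shares 21.2% of its 50-base words with H2-DMb1. H2-Ob, a chain of the H2-DM inhibitor H2-DO, had a difference of 0.48 with an edgeR adjusted p of 0.434. The other chain, H2-Oa, was too low to test, with 10 and 6 counts in saline and 3 and 1 in baicalein. Ciita, the class II transactivator, was at 3.88 and 4.52 CPM in saline and at 3.58 and 3.74 in baicalein. Both baicalein livers were lower, but the log2 difference of -0.20 had a 95% interval from -0.83 to 0.43 and an edgeR adjusted p of 0.696. Over all genes tested, 7.65% were called higher and 7.90% lower. Of 9 class II processing genes outside the members, 3 were called higher and 1 lower, with a median of 0.10. Those higher were the lysosomal proteases Ctss (0.61), which trims the invariant chain, and Ctsb (0.39), and the ubiquitin ligase Marchf1 (1.73), which takes class II molecules off the surface. The related ligase Marchf8 fell by 0.43 on the log2 scale.

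Of the 48 members 43 lie on chromosome 17, in an order that mixes the classes. The submitters' processing notes name build mm10, but the deposited positions of 0 of the 48 members match the GENCODE M21 annotation of mm10, so they are given as deposited. There this stretch runs from Tapbp, which starts at 34134873, to H2-M2, which ends at 37794443. Psmb9, Tap1, Psmb8 and Tap2 lie side by side between the class II genes H2-DMb1 and H2-Ob. Within that block the class I processing genes had log2 fold changes of 0.32 to 0.72. The class II genes beside it had estimates of similar size, 0.60 for H2-DMb2, 0.67 for H2-DMb1 and 0.48 for H2-Ob. Their intervals were wider and they were not called. H2-DMa, before H2-DMb2, had 0.08, and H2-Ab1, H2-Aa and H2-Eb1, which follow H2-Ob, had -0.02 to 0.09. Psmb9 (34400961 to 34406738, minus strand) and Tap1 (34406527 to 34416199, plus strand) stand head to head and overlap by 212 bases. Whether the counting used strand is not given, so reads in that overlap cannot be assigned with certainty. The same holds for Ciita, which overlaps Dexi on the opposite strand by 25888 bases, and for H2-DMa, which overlaps Brd2 there by 3094. Dexi had 235 to 341 counts a liver beside 52 to 75 for Ciita, and Brd2 1469 to 2138 beside 113 to 149 for H2-DMa, so the values of Ciita and H2-DMa are uncertain. Tapbp overlaps Zbtb22 on the same strand by 3422 bases, with 242 to 307 counts for Zbtb22 beside 1433 to 2775 for Tapbp. H2-D1 (35481706 to 35486475) opens a run of class I genes on the far side of the class II genes, while H2-K1 (34214991 to 34219321) lies before them. The members on other chromosomes are B2m on 2, Psmb10 and Nlrc5 on 8, Ciita on 16 and Cd74 on 18.

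**Figure D4:**
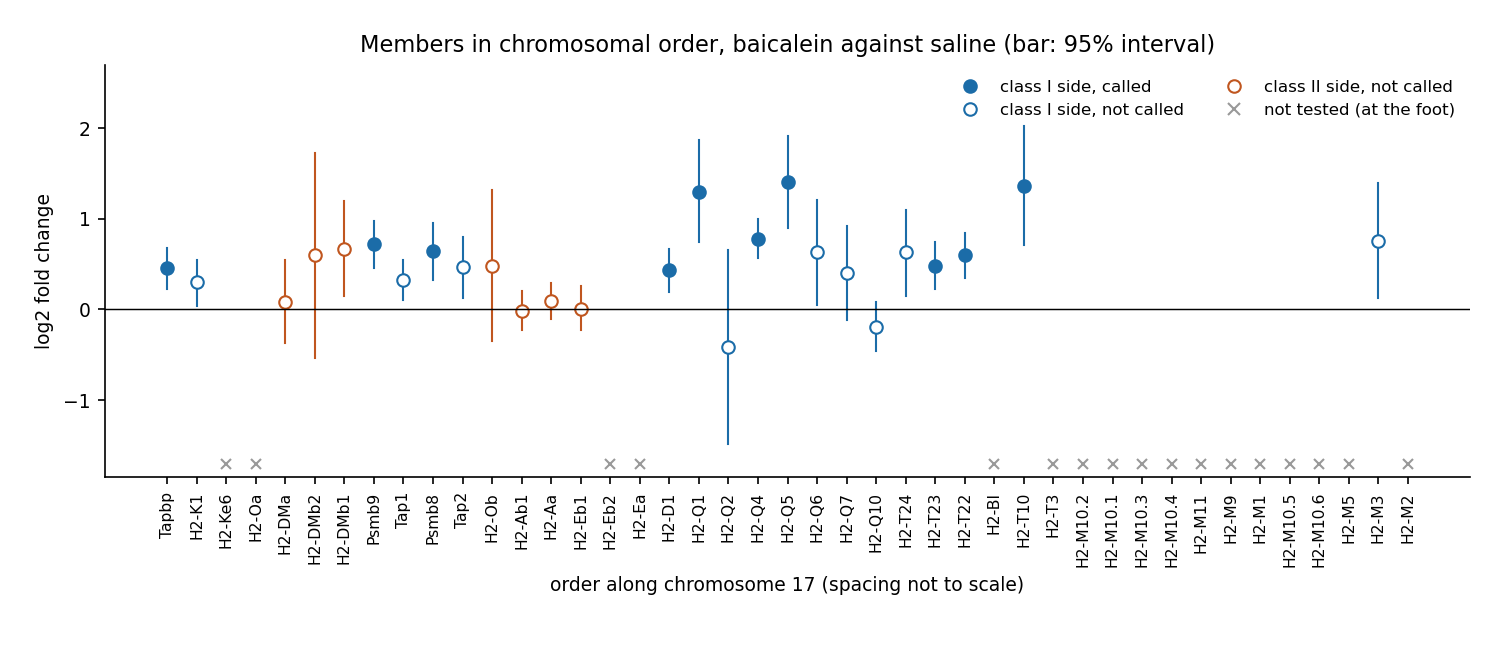
Log2 fold change of baicalein against saline (95% interval as bars) for the 43 members on chromosome 17 in their order along it, with crosses at the foot for members not tested. The class I processing genes at 0.32 to 0.72 sit between the class II genes H2-DMb1 (0.67) and H2-Ob (0.48), neither called. The 3 class II chains lie at -0.02 to 0.09.

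Few genes that act on MHC transcription were called, and part of the wider interferon gamma response was called higher. Of 14 tested regulators, 2 (14.3%) were called higher and 1 lower, with a median of 0.08. Of all genes tested, 7.65% were higher and 7.90% lower by the same rule. Irf1, an interferon-induced factor that acts on class I promoters, was at 34.6 and 33.9 CPM in saline and at 56.7 and 55.8 in baicalein, a log2 rise of 0.72 (95% interval 0.51 to 0.92, edgeR adjusted p 0.00103). Irf8, a factor of macrophages and dendritic cells, rose by 0.70, and Ifngr2, a chain of the interferon gamma receptor, fell by 0.51. Of 12 tested interferon gamma response genes 5 were called higher and 0 lower, with a median of 0.73. They were Irf1, the guanylate-binding proteins Gbp3 (1.54), Gbp2 (1.38) and Gbp7 (1.01), and the GTPase Igtp (0.74). The chemokine gene Cxcl9 had a difference of 0.42 with an edgeR adjusted p of 0.0547. Gbp4 had 0.98 and Gbp5 0.92, with edgeR adjusted p of 0.0640 and 0.104. Ifng itself had 2, 0, 1 and 0 counts and was not tested.

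Outside the MHC, 8 tested genes of MHC-like molecules had a median of 0.08. Cd1d1, which presents lipids to natural killer T cells, rose by 0.46, from 235 and 269 CPM to 365.0 and 329.8. Raet1e, a stress ligand of the activating receptor NKG2D, fell by 2.10, from 6.23 and 7.07 CPM to 1.44 and 1.65. Hfe, which takes part in the sensing of iron, had a difference of -0.32 and an edgeR adjusted p of 0.0553. Over all genes tested, 7.65% were called higher and 7.90% lower. Of 6 tested costimulatory and checkpoint ligands 2 were called higher and 0 lower, with a median of 0.89. These were Cd83 (1.25), a marker of mature antigen-presenting cells that steadies class II at the surface, and Cd274 (0.91), which encodes PD-L1. Cd86, a ligand of CD28, had a difference of 0.95 with an edgeR adjusted p of 0.0873.

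Markers of Kupffer cells and sinusoidal endothelium were mostly called higher, and those of dendritic cells and lymphocytes mostly were not called. Over all tested genes 7.65% were called higher. What part these cells have in the results above was not tested. Of 11 Kupffer cell markers 10 were called higher and 0 lower. They ranged from C1qb (0.42) and Clec4f (0.46) to Vsig4 (1.11) and the scavenger receptor Marco (1.73). Their summed level was 656.5 and 575 CPM in saline and 1100.2 and 940.1 in baicalein. Of 7 markers of sinusoidal endothelium 6 were called higher, from 341 and 301.5 CPM summed to 477 and 467, with log2 rises from 0.53 (Clec4g) to 0.95 (Lyve1). Of 6 tested dendritic cell markers 0 were called, with summed levels of 14.4 and 15.3 CPM in saline and 19.5 and 17.2 in baicalein. Of 6 B cell markers 1 was called, Jchain, and the sum went from 6.88 and 6.35 CPM to 19.2 and 17.7. Of 9 tested T and NK cell markers 1 was called, Gzma, and the sum went from 11.8 and 9.99 CPM to 19.9 and 21.9. The median log2 fold changes of the B cell and the T and NK cell markers were 1.27 and 1.1, above the 0.7 of the Kupffer cell markers. Rises at such low counts are hard to call, so the calls do not rank these lists by size of change. The 6 hepatocyte markers were split. Alb (0.57), Cps1 (0.60) and Ass1 (0.44) were called higher, while Apoa1, Serpina1a and Ttr had log2 differences of -0.49, -0.38 and -0.08 and were not called. Alb makes up most of that list's sum. Each of these 6 marker lists had a higher sum in both baicalein livers than in both saline livers. So did the whole class II side, with a ratio of 1.09, while the summed class II chains had a ratio of 1.03 and overlapping groups.

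**Figure D5:**
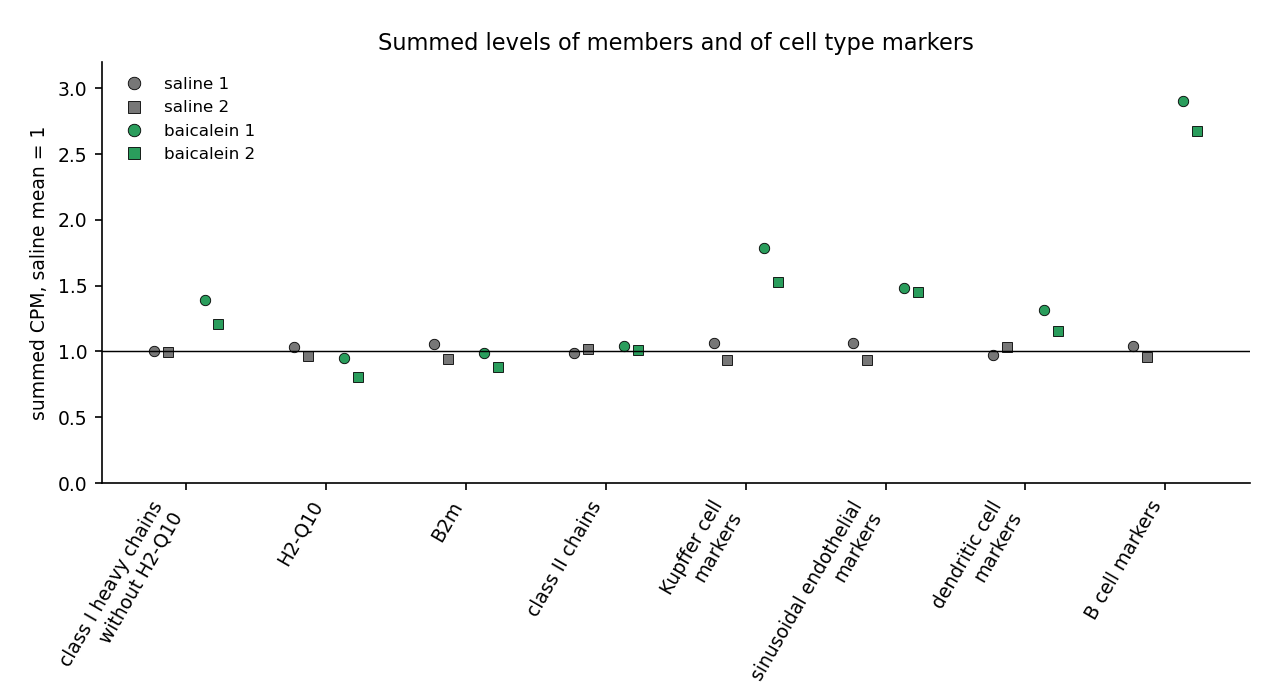
Summed CPM in each of the 4 livers, divided by the mean of the saline livers, for members (left 4 columns) and cell type marker lists (right 4 columns). Class I heavy chains without H2-Q10 lie above 1 in both baicalein livers, class II chains lie near 1 in all 4, and the Kupffer cell, endothelial, dendritic cell and B cell markers lie above 1 in both baicalein livers.

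The 11 called members kept their direction in all 12 alternatives. In saline 2 against baicalein 1 alone, the livers with few muscle transcripts, H2-D1 differed by 0.54 on the log2 scale and H2-Q4 by 0.81. The direction in that pair was fixed beforehand, and leaving out 1 liver could hardly reverse it. Both baicalein livers lay above both saline livers for each of the 11. Their calls were less secure: of the 11, 4 were still called without saline 1, 3 without saline 2, 4 without baicalein 1, 8 without baicalein 2 and 5 when the fit carried the replicate number as a block. Psmb8 and Psmb10 each lost the call in 6 of the 12 alternatives, H2-T10 in 5, and Tapbp, H2-T23 and H2-D1 in 4.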

How the data were processed

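Per the labels' protocols, total RNA from 4 livers was made into libraries with a SMARTer mRNA kit. The submitters' processing notes name build mm10. Aligner, counting tool and read length: not given in the sources used here. One table was deposited by the authors, with whole-number read counts and FPKM per gene and liver. Positions in it are printed as deposited: 0 of the 48 members had the same start and end in GENCODE M21, an annotation of mm10. Deposited counts were tested, and deposited FPKM gave levels per length. Counts and FPKM parted by over 1% for 0 members.

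Genes passing filterByExpr (12657) were scaled by TMM (factors 0.963 to 1.07) and tested in R 4.3.3 with edgeR 4.0.16 (robust quasi-likelihood fit, baicalein against saline, two-sided), with Benjamini-Hochberg adjustment over all of them and a threshold of 0.05. The biological coefficient of variation shared by all genes was 0.289. The fit was tested on simulated data. A total of 13976440 to 18731616 reads puts 3 counts at 0.16 to 0.215 CPM, which covers counting error only. Replicates share no label beyond a number, and same-numbered livers did not deviate together. The alternatives were another size factor, other filters, a replicate block, each liver left out, limma-voom (limma 3.58.1), DESeq2 1.42.0, FPKM-implied counts and, chosen after seeing the data, crossed pairs and saline 2 against baicalein 1 alone. Every tested member is given with values or within a range of its role, and of each wider pathway list the members past the threshold and up to 3 of smallest p outside them. Members and lists were chosen with earlier results of these data known.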

Additional observations from a re-analysis of the deposited data

How the results depend on the processing

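Of the 11 members called higher, 11 were called with another size factor, without a count filter, with a mean CPM of at least 1, with limma-voom and with FPKM-implied counts, and 9 with DESeq2. Leaving out 1 liver, members called higher numbered 3 to 10, all genes called higher 521 to 665 and all genes called lower 535 to 663. With the replicate number as a block, 5 members, all on the class I side, 531 genes higher and 601 lower were called. Deviations of same-numbered livers correlated at -0.728. With crossed pairs 17 members were called higher, 2 of them on the class II side, with 1809 genes higher and 1689 lower. The class II sum was 1.03 times as high with TMM and 1.08 times with plain CPM and with deposited FPKM. Over the 12 alternatives the 31 tested members kept their sign except for H2-DMa, H2-DMb2, H2-Eb1 and H2-Ab1, which were not called and changed sign when 1 liver was left out. The cause of these shifts was not tested. Every value is limited by 2 livers a group, by the Y-linked split and by the muscle transcripts in saline 1 and baicalein 2, and low members such as H2-Q2 and H2-DMb2 have wide intervals.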
